A study of Bos taurus with 47 samples.

Results

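The step from the 8-cell embryo to the morula was compared between bovine embryos made by in vitro fertilization (IVF) and by somatic cell nuclear transfer (scNT). In scNT a cultured body cell is fused into an oocyte from which the chromosomes were removed. The quantity examined for each gene was the scNT step (morula minus 8-cell) minus the IVF step, called here the step difference. Members were all genes with a normalized value of 10 or more in at least 3 of the 15 libraries of these 4 groups, 14519 of the 20526 genes in the table (70.7%). A step difference below 0 means that a transcript fell further, or rose less, in scNT embryos, and one above 0 means the opposite.

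The 4 groups were IVF 8-cell embryos (4 libraries), IVF morulae (4), scNT 8-cell embryos (4) and scNT morulae (3, numbered 2, 3 and 4 in the labels). Per the labels, each library came from a pool of 20 embryos, taken on day 3 (8-cell) or day 6 (morula) after IVF or scNT. The series' text gives 4 pools per stage and the extraction text 3, so whether 4 libraries of a group are 4 separate pools is not certain. IVF embryos were sired with frozen semen of a Holstein bull. Donor nuclei came from serum-starved fibroblasts at passages 4 to 5, grown from an ear biopsy of 1 bull, a Brahma Spanish cross. The donor line therefore stands for 1 animal, and method and nuclear genotype cannot be told apart. All 4 groups share oocytes matured in culture and a medium in which cumulus cells, the somatic cells around the oocyte, were grown with the embryos. Nothing in the labels ties a pool to a separate batch of oocytes, and the spread behind every p-value is that between pools, which could be technical.

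An early mammalian embryo begins with RNA that the oocyte stored. Over the first cleavages this maternal RNA is degraded and the embryo's own genome is switched on, a handover known as the maternal-to-embryonic transition. In cattle the main wave of genome activation falls at about the 8-cell stage, and the morula is where the cells compact before the blastocyst cavity forms. In scNT embryos the nucleus that must be switched on is that of a differentiated cell.

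Recovered reads ran from 6413054 to 11306619 in IVF 8-cell libraries, 4783919 to 8241675 in IVF morulae, 9028054 to 15274177 in scNT 8-cell libraries and 5663196 to 8168033 in scNT morulae, so 8-cell libraries of both methods tended to be deeper. The part of depth in the results was not tested. Libraries of a group correlated at r = 0.882 to 0.969 on the log2 scale, with the lowest value between IVF 8-cell libraries. The genes carry Ensembl identifiers only, and 0 of them matched a symbol in the reference table, so named pathways and markers of fibroblasts, cumulus cells or embryonic lineages were not examined, the labelled stages were not checked against such markers, and at most 2 identifiers per direction are given.

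More genes were called for a step difference below 0 than for one above 0. Of 14519 genes, 2644 (18.2%) had a step difference that passed the test, 1952 (13.4%) below 0 and 692 (4.77%) above 0 (limma, Benjamini-Hochberg adjusted p under 0.05, n = 4, 4, 4 and 3 libraries). Values are on the log2(value + 1) scale. The median step difference was -1.68 among the 1952 genes, called the lower genes below, and 1.88 among the 692, called the higher genes. The step differed by 2-fold or more in 1794 lower and 646 higher genes, and by 8-fold or more in 87 and 112. The median over all genes tested was -0.02. At unadjusted p under 0.05 (limma) the counts were 3246 below 0 and 2138 above 0. With the genes split by mean value into 4 sets of like size, 21.5% of the highest set (mean 524.7 or more) and 4.79% of the lowest set (mean under 37.0) were called below 0. For calls above 0 these shares were 5.15% and 2.92%.

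The number of calls depended on single libraries. Leaving out 1 of the 15 libraries in turn gave between 1188 and 4346 calls, with 58.1% to 89.1% of them below 0. It fell most, to between 1188 and 1746, without IVF 8-cell replicate 2 (1615) or 3 (1746), IVF morula replicate 2 (1381) or 3 (1708), scNT 8-cell replicate 1 (1342) or 3 (1255), or scNT morula replicate 4 (1188). It rose to 4346 without IVF 8-cell replicate 4. Calls above 0 were the less steady, at 129 to 1823. They also moved by over 1.5 times without IVF morula replicate 1 (331) or 4 (305), scNT 8-cell replicate 4 (1066), or scNT morula replicate 2 (404). Over these 15 fits 1010 of the 2644 genes were called every time, 910 lower and 100 higher. With replicates 2 to 4 only, 147 genes were called, 134 lower and 13 higher. With the replicate number as a block among the 8-cell libraries, which followed their numbers across the methods, 4300 genes were called, 2515 lower and 1785 higher. That block leaves every estimate as it was and changes only the error. With equal library totals the split was 483 higher and 2198 lower.

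**Figure D1:**
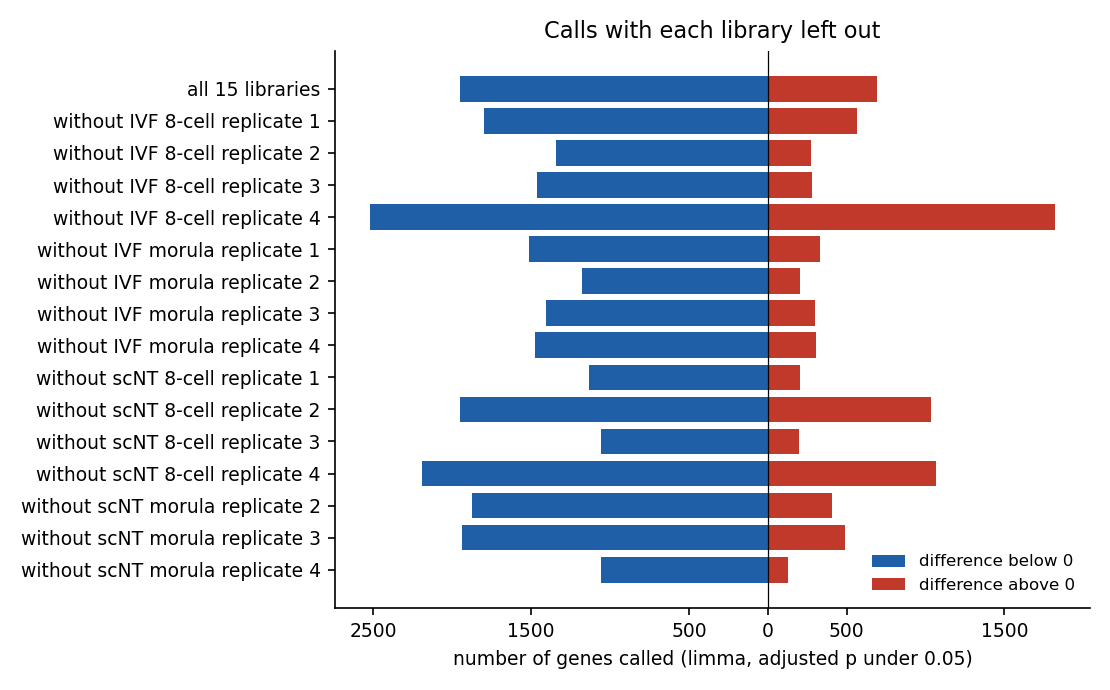
Number of genes with a step difference called below 0 (blue, left of the line) and above 0 (red, right) with all 15 libraries and with each library left out. Calls below 0 outnumbered calls above 0 in every fit, and the total ran from 1188 without scNT morula replicate 4 to 4346 without IVF 8-cell replicate 4.

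The 2 methods mostly moved in the same direction and differed in how far they moved. Across all 14519 genes the scNT and IVF steps, which share no library, had a Pearson r of 0.83, a description across genes that are not independent replicates. The SD over genes was 2.04 for the scNT step and 1.19 for the IVF step. In 72.4% of all genes tested both steps had the same sign and the scNT step was the longer one.

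By their estimates nearly all lower genes went down in both kinds of embryo, and in most of them both falls passed the test. Of the 1952, 1887 had negative steps in both methods, and both falls passed the test in 1314 of them. Among all 14519 genes tested these numbers were 6975 and 3109. Over all genes tested, 42.8% were called for the IVF step, 24.1% as falls and 18.7% as rises, and 69.8% for the scNT step, 37.5% as falls and 32.3% as rises. Another 624 lower genes had a fall in scNT embryos that passed while their IVF step did not, as did 2331 of all 14519 genes tested. The median IVF step was -0.94 and the median scNT step -2.64. In the 1926 lower genes with a mean of 10 or more in both 8-cell groups, a median of 50.2% of the 8-cell level was left in IVF morulae (quartiles 42.9% and 59.7%) and 16.1% in scNT morulae (quartiles 11.1% and 22.7%). In all 12635 genes with such means 78.8% and 76.9% were left. These values follow from the choice of the genes and are a description.

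A further 60 lower genes rose in IVF and fell in scNT embryos by their estimates, as did 641 of all 14519 genes tested. The 60 had median steps of 0.40 and -1.57. Only 2 of them passed the test in both directions. Their mean log2 level was 6.10 ± 0.06 in oocytes, 5.14 ± 0.37 in IVF 8-cell embryos, 5.68 ± 0.07 in IVF morulae, 5.92 ± 0.15 in scNT 8-cell embryos and 4.33 ± 0.40 in scNT morulae (SD, n = 4, 4, 4, 4 and 3). The remaining 5 lower genes had positive steps in both methods. Fits with 1 library left out called fewer or more lower genes, and the number that fell in both methods went with that. It was 1139 of 1175 without IVF morula replicate 2 and 1034 of 1059 without scNT morula replicate 4. Without scNT 8-cell replicates 1 and 3 it was 1105 of 1135 and 1031 of 1059.

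By their estimates most higher genes went up in both kinds of embryo, with the IVF rise past the test in fewer of them. Both steps were positive in 540 of the 692, and both rises passed in 274 of these. Among all 14519 genes tested these numbers were 5616 and 2532. Each fit with 1 library left out had its own called genes. Without scNT morula replicate 4, 92 of 129 higher genes rose in both methods. Without IVF 8-cell replicate 4 it was 1110 of 1823, and the other fits gave counts between 92 and 1110. In 378 of the 692 higher genes the scNT rise passed and the IVF step did not, as in 2155 of all 14519 genes tested. The median IVF step was 0.62 and the median scNT step 2.49. A set of 148 higher genes went down in IVF and up in scNT embryos by their estimates, as did 1286 of all 14519 genes tested. The 148 had medians of -0.43 and 1.54, and 3 of them passed the test in both directions. The level of these 148 genes was 6.94 ± 0.71 in IVF 8-cell embryos and 6.18 ± 0.20 in IVF morulae, against 5.39 ± 0.44 and 7.09 ± 0.14 in scNT embryos (SD, n = 4, 4, 4 and 3). The order of the 4 groups was thus scNT morula, IVF 8-cell, IVF morula, scNT 8-cell, and the ranges of scNT morulae (7.01 to 7.26) and IVF 8-cell libraries (6.21 to 7.82) overlapped.

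**Figure D2:**
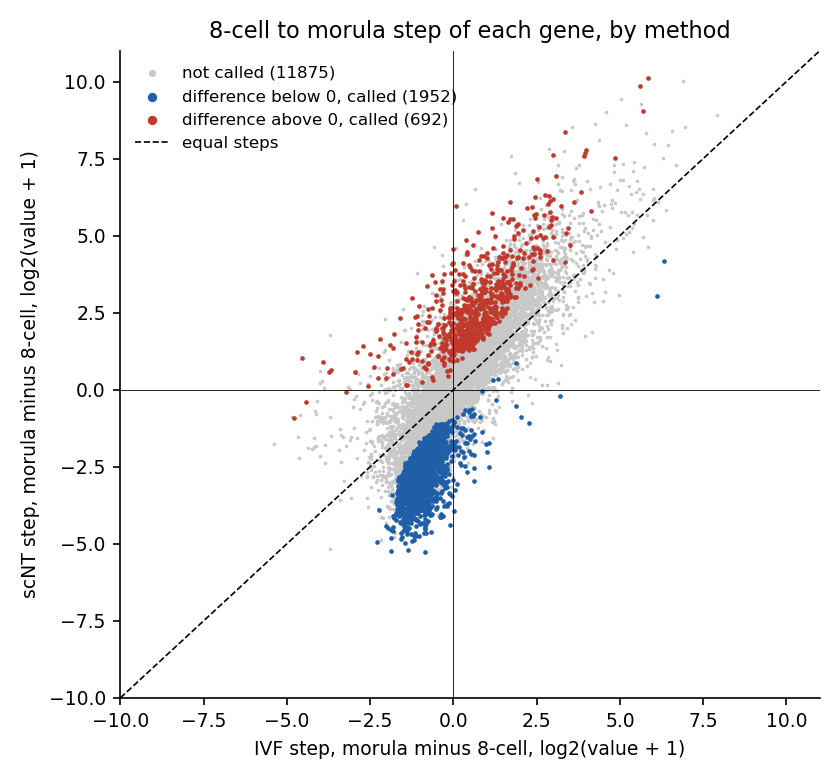
Each point is 1 of 14519 genes, with its IVF step on the x axis and its scNT step on the y axis, both as morula minus 8-cell in log2(value + 1), and the dashed line marks equal steps. The 1952 genes called below 0 lie mainly in the lower left quadrant under the line, with a median IVF step of -0.94 and a median scNT step of -2.64, and the 692 called above 0 lie above the line.

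The step difference equals the scNT-minus-IVF gap in morulae minus that gap in 8-cell embryos, and lower and higher genes differed in which gap was the larger. Lower genes stood apart mainly in morulae. Their median gap was -1.21 in morulae and 0.49 in 8-cell embryos, and 1391 of the 1952 were called lower in scNT morulae (10.3% of all genes tested, of the 11.5% called in either direction). At the 8-cell stage 1 of them was called, higher in scNT embryos, as were 0.0207% of all genes tested. By the size of the gap, higher genes stood apart more at the 8-cell stage, though fewer of them were called there than in morulae. Their median gap was -1.11 in 8-cell embryos and 0.66 in morulae, and the 8-cell gap was the larger in 487 of 692 (70.4%), against 45.5% of all genes tested. Of the higher genes 7 were called lower in scNT 8-cell embryos, where 0.0482% of all genes were, and 82 were called higher in scNT morulae, where 1.25% of all genes were. Both gaps are part of the contrast that chose the genes, so nothing further is read from them. The number called for the 8-cell gap over all genes was 10 (0.0689%), and 1200 with the replicate block among the 8-cell libraries. Leaving out IVF 8-cell replicate 4 gave 1517, leaving out scNT 8-cell replicate 2 gave 206, and leaving out any other library gave 3 to 7. Fits with 1 library left out had their own lower genes. Of these, 784 of 1175 were also called lower in scNT morulae without IVF morula replicate 2, and 923 of 1408 without replicate 3. Without scNT morula replicate 4 it was 476 of 1059. Calls for the morula gap among all genes went from 1675 to 959, 1077 and 554 in these 3 fits.

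The share of all normalized reads taken up by these genes is given for each library as a description, from the same libraries that chose them. Lower genes held 27.8%, 16.3%, 26.3% and 29.8% in IVF 8-cell replicates 1 to 4 and 11.9%, 14.0%, 12.8% and 13.2% in IVF morulae. In scNT 8-cell embryos they held 34.8%, 30.3%, 35.0% and 28.8%, and in scNT morulae 2 to 4 they held 7.21%, 6.62% and 4.11%. Morulae of the 2 methods did not overlap, whereas the highest IVF 8-cell library, replicate 4, lay above the lowest scNT one, also replicate 4. A normalized value is relative, so a loss of these RNAs cannot be told apart from a gain of others, nor less RNA per cell from fewer cells of a type.

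Higher genes held 3.17%, 6.37%, 4.06% and 2.20% of the total in IVF 8-cell replicates 1 to 4 and 6.41%, 6.13%, 6.56% and 6.69% in IVF morulae. They held 1.30%, 2.35%, 1.33% and 2.07% in scNT 8-cell embryos and 8.64%, 8.02% and 9.87% in scNT morulae 2 to 4. IVF 8-cell libraries were the most spread, with replicate 2 already at the level of the IVF morulae and replicate 4 within the range of the scNT 8-cell libraries. Between same-numbered 8-cell libraries the mean log2 level of the higher genes differed, as scNT minus IVF, by -1.50, -1.46, -1.65 and -0.38 for replicates 1 to 4. For the lower genes these values were 0.56, 0.91, 0.62 and -0.05, so replicate 4 had the other sign.

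**Figure D3:**
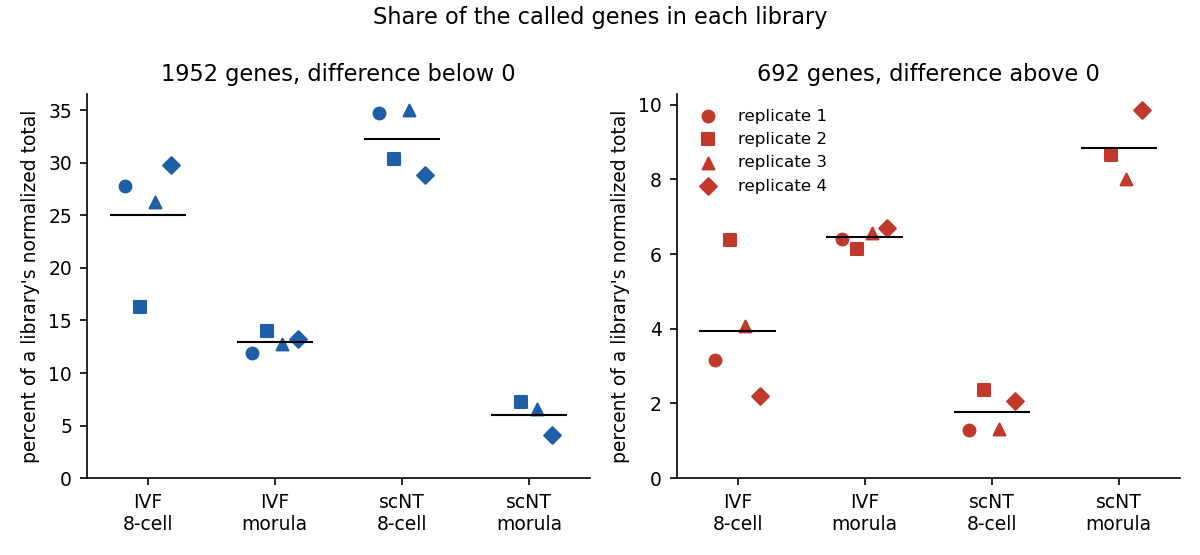
Percent of each library's normalized total held by the 1952 lower genes (left) and the 692 higher genes (right), 1 point per library with a marker shape per replicate number and a line at each group's mean. Lower genes went from 16.3% to 29.8% in IVF 8-cell libraries to between 11.9% and 14.0% in IVF morulae, and from between 28.8% and 35.0% to between 4.11% and 7.21% in scNT embryos.

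Libraries that took no part in the contrast placed the lower genes among the RNAs abundant in the oocyte. Their median log2 level in oocytes was 9.14, against 6.99 for all genes tested, and 16 of the 1952 (0.82%) had an oocyte mean under 10, against 16.0% of all genes tested. From the oocyte to the IVF blastocyst, 98.1% of the lower genes declined and 1520 (77.9%) declined at least 4-fold, against 50.8% and 20.6% of all genes tested. The median change was -3.24. Of the 1952, 1887 fell in both methods by their estimates, and calls below 0 were more frequent at high mean values. All genes tested are matched to them in neither respect, and falling genes of like level were not compared. In fibroblasts 28.2% of the lower genes had a mean under 10, against 19.0% of all genes tested.

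Higher genes went the other way between oocyte and blastocyst. Of the 692, 658 (95.1%) were higher in IVF blastocysts than in oocytes and 390 (56.4%) at least 4-fold, against 49.2% and 20.8% of all genes tested, with a median change of 2.28. Most higher genes rose in both methods by their estimates, and they were not compared with rising genes of like level. In 179 of them (25.9%) the oocyte mean was under 10, against 16.0% of all genes tested. These 179 had a larger median step difference, 3.07, than the 513 others, 1.60. Both sets hold only genes that passed the test of this difference, and the 179 stood at lower levels. The 2 medians are therefore a description. The level of the 179 was 1.35 ± 0.12 in oocytes, 4.35 ± 0.74 in IVF 8-cell embryos and 4.93 ± 0.12 in IVF morulae. In scNT embryos it was 2.48 ± 0.56 at the 8-cell stage and 6.17 ± 0.13 in morulae (SD, n = 4, 4, 4, 4 and 3).

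Both sets were also placed against the blastocyst. The scNT morula values took part in choosing the genes, so their place is a description. Higher genes had a mean log2 level of 7.64 ± 0.04 in IVF morulae and 8.46 ± 0.19 in scNT morulae, and of 7.84 ± 0.04 and 7.98 ± 0.08 in IVF and scNT blastocysts (SD, n = 4, 3, 4 and 4). In 452 of 692 (65.3%) the scNT morula mean was above both blastocyst means, against 50.9% of all genes tested. In 144 (20.8%) it was below both, against 35.8% of all genes tested. Lower genes had 7.59 ± 0.07 in IVF morulae, 6.31 ± 0.49 in scNT morulae, 5.57 ± 0.15 in IVF blastocysts and 5.21 ± 0.12 in scNT blastocysts. In 1425 of 1952 (73.0%) the scNT morula mean lay between those of IVF morulae and IVF blastocysts, against 48.9% of all genes tested. In 373 (19.1%) it was below both blastocyst means, which is fewer than the 35.8% of all genes tested. Among the scNT morulae, replicate 4 had the lowest level of lower genes, 5.75 against 6.56 and 6.64, and the highest level of higher genes, 8.68 against 8.34 and 8.36.

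**Figure D4:**
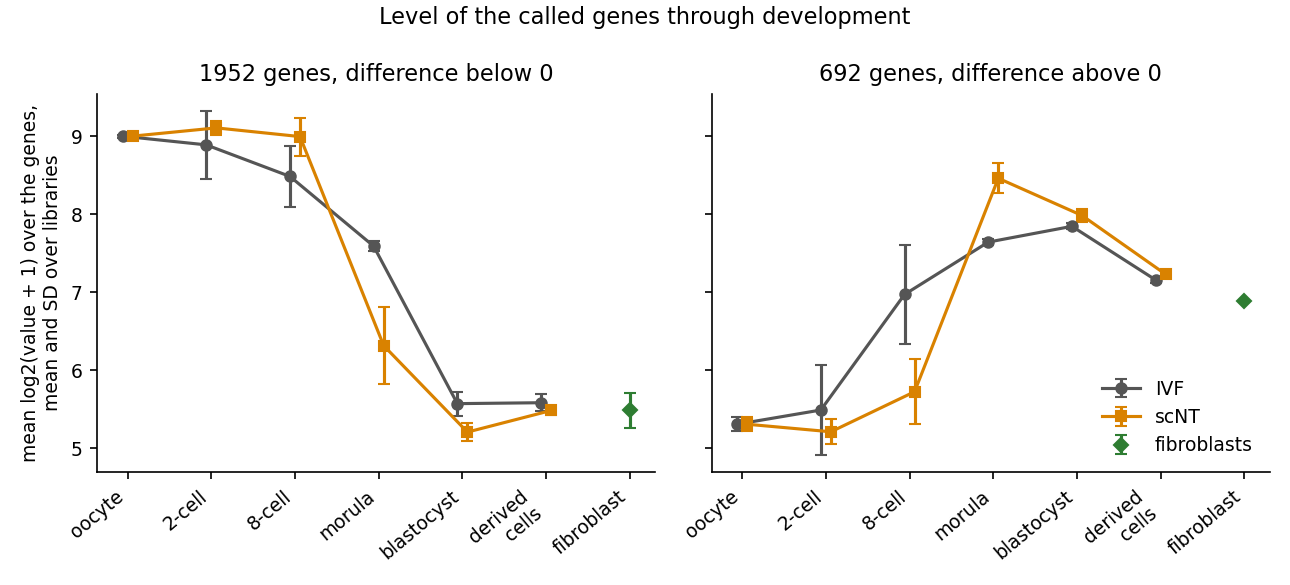
Mean log2(value + 1) over the 1952 lower genes (left) and the 692 higher genes (right) in oocytes, the 5 later stages of IVF (grey circles) and scNT (orange squares), and fibroblasts (green), with the mean and SD over libraries. The lines of the 2 methods cross between the 8-cell stage and the morula, and IVF and scNT blastocysts are at 5.57 and 5.21 for lower genes and 7.84 and 7.98 for higher genes.

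In blastocysts, whose libraries are independent of the contrast, the median gap between the methods was below 0 for lower genes and above 0 for higher genes. Its size is not set against that in morulae, since the morula gap is part of what chose the genes. Of the 1445 lower genes tested there, 119 (8.24%) were called lower in scNT blastocysts and 8 higher, where 3.42% and 2.53% of all genes were (limma, adjusted p under 0.05, n = 4 and 4). Their median gap was -0.23, and 75.3% lay below 0, against 51.4% of the step's genes tested in blastocysts. Of the 645 higher genes, 52 (8.06%) were called higher and 10 lower, with a median gap of 0.10 and 63.7% above 0. Leaving out 1 blastocyst library in turn kept the medians between -0.25 and -0.19 for lower and between 0.07 and 0.11 for higher genes. The calls were less steady. Lower genes called lower numbered 44 when IVF replicate 2 was left out, 50 for IVF replicate 3, 66 for scNT replicates 1 and 4 and 78 for scNT replicate 3. In these fits calls below 0 among all genes dropped too. They went from 431 to 152 and 188 for IVF replicates 2 and 3, and to 224, 277 and 232 for scNT replicates 1, 3 and 4. Higher genes called higher numbered 32 when IVF replicate 2 was left out, 30 for scNT replicates 1 and 3 and 29 for scNT replicate 4. Calls above 0 among all genes went from 319 to 121 for IVF replicate 2, and to 148, 153 and 124 for scNT replicates 1, 3 and 4.

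In 2-cell embryos the gap of both sets rested on 1 library. The medians were 0.22 for the 1941 lower genes tested and -0.22 for the 507 higher genes, with 2 lower genes called, both higher in scNT embryos, and 0.0328% of all genes called higher. Leaving out any scNT 2-cell library ended both calls. Without IVF 2-cell replicate 3, in which the level of lower genes was 8.24 and that of the other 3 libraries was at least 9.01, both medians rounded to 0, at 0.00091 and -0.00033. In blastocyst-derived cells the medians were -0.03 for 1362 lower genes and 0.03 for 607 higher genes, and 19 lower genes (1.40%) were called lower and 6 higher, where 0.702% and 0.638% of all genes were. Of the higher genes 14 (2.31%) were called higher and 0 lower. These calls became fewer in most fits with 1 library left out. The 19 became 4 to 13, with 12 and 13 for scNT replicates 1 and 2 and at most 8 for each of the other 6. The 14 became 8, 9, 6 and 8 for scNT replicates 1 to 4. For IVF replicates 1 to 4 they became 12, 10, 10 and 14. Among all genes the 87 called lower became 22 to 58. The 79 called higher became 29, 50, 19 and 29 for scNT replicates 1 to 4, and 40, 30, 48 and 47 for IVF replicates 1 to 4. The median of lower genes was above 0, at 0.0020 and 0.00081, when IVF replicate 3 or 4 was left out.

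On and off states in morulae were rare. In 59 lower genes (3.02%) every scNT morula was under 10 and every IVF morula at 10 or more, against 0.544% of all genes tested. In 20 higher genes (2.89%) every IVF morula was under 10 and every scNT morula at 10 or more, against 0.289%. The groups compared here are those of the contrast, so these counts are a description.

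The named genes are the 2 with the largest step difference in each direction among those called with a mean of 50 or more. ENSBTAG00000040202 had normalized values of 291.3, 91.7, 122 and 234.1 in IVF 8-cell replicates 1 to 4 and of 134.2, 81.7, 75.9 and 86.6 in IVF morulae. In scNT embryos it had 682.2, 277, 340.6 and 198.5 at the 8-cell stage and 16, 14.9 and 1.5 in morulae 2 to 4. The 2 stages overlapped in IVF embryos and lay far apart in scNT embryos. Its step difference was -4.42 ± 0.83 (SE; limma adjusted p = 0.00960), from steps of -0.84 in IVF and -5.26 in scNT embryos. It was an oocyte RNA, at 534.4 ± 55.1 in oocytes, 8.05 ± 3.73 in IVF and 2.55 ± 3.63 in scNT blastocysts and 0.2 ± 0.4 in fibroblasts (SD, n = 4 each).

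ENSBTAG00000038976 followed the same course. Its values were 155, 73.4, 141.4 and 322.1 in IVF 8-cell embryos and 146.6, 62.4, 112.2 and 79.7 in IVF morulae, again overlapping. They were 334.9, 351.6, 386.7 and 281.5 in scNT 8-cell embryos and 21.6, 43.6 and 1.5 in scNT morulae 2 to 4, below every other library of the 4 groups. The step difference was -3.97 ± 1.00 (SE; limma adjusted p = 0.0194), and -2.75 without scNT morula replicate 4. Oocytes held 696 ± 99.4, IVF blastocysts 1.58 ± 1.89, scNT blastocysts 1.93 ± 2.31, and all fibroblast libraries were at 0 (SD, n = 4 each).

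ENSBTAG00000046089 was a gene that came on at the morula stage. IVF 8-cell libraries had values of 0, 1.2, 3.1 and 0.6 and scNT 8-cell libraries 0, 1.6, 0 and 0, at most 3 recovered reads in any of them, so no fold of either step is given. IVF morulae had 38.6, 16.3, 13.9 and 13.7 and scNT morulae 349, 391.1 and 516.8, with no overlap. The step difference of 5.01 ± 0.75 on the log2(value + 1) scale (SE; limma adjusted p = 0.00830) depends on the pseudocount through the 8-cell values. In blastocysts the values were 128.5 ± 133 for IVF and 251.5 ± 81.0 for scNT, and the mean was at most 0.3 in oocytes, 2-cell embryos, derived cells and fibroblasts (SD, n = 4 each).

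ENSBTAG00000045860 belonged to the genes whose estimates went down in IVF and up in scNT embryos. IVF 8-cell libraries had 396.4, 495.3, 761.8 and 410.7 and IVF morulae 188.2, 25.3, 42.8 and 4.3, without overlap. The scNT 8-cell libraries had 154.1, 161.5, 45.2 and 21.9 and scNT morulae 98.8, 250.4 and 93.7, which overlapped. The step difference was 4.82 ± 1.30 (SE; limma adjusted p = 0.0252), from -3.93 in IVF and 0.89 in scNT embryos. Outside these stages its means were 0.225 ± 0.45 in oocytes, 2.53 ± 0.83 in IVF and 1.90 ± 0.82 in scNT blastocysts, and 0.50 ± 0.60 in scNT 2-cell embryos (SD, n = 4 each). IVF 2-cell libraries ran from 0 to 146.6. Its adjusted p ran from 0.0140 to 0.0550 with 1 library left out, and it was not called without IVF morula replicate 2, scNT 8-cell replicate 3 or scNT morula replicate 4.

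**Figure D5:**
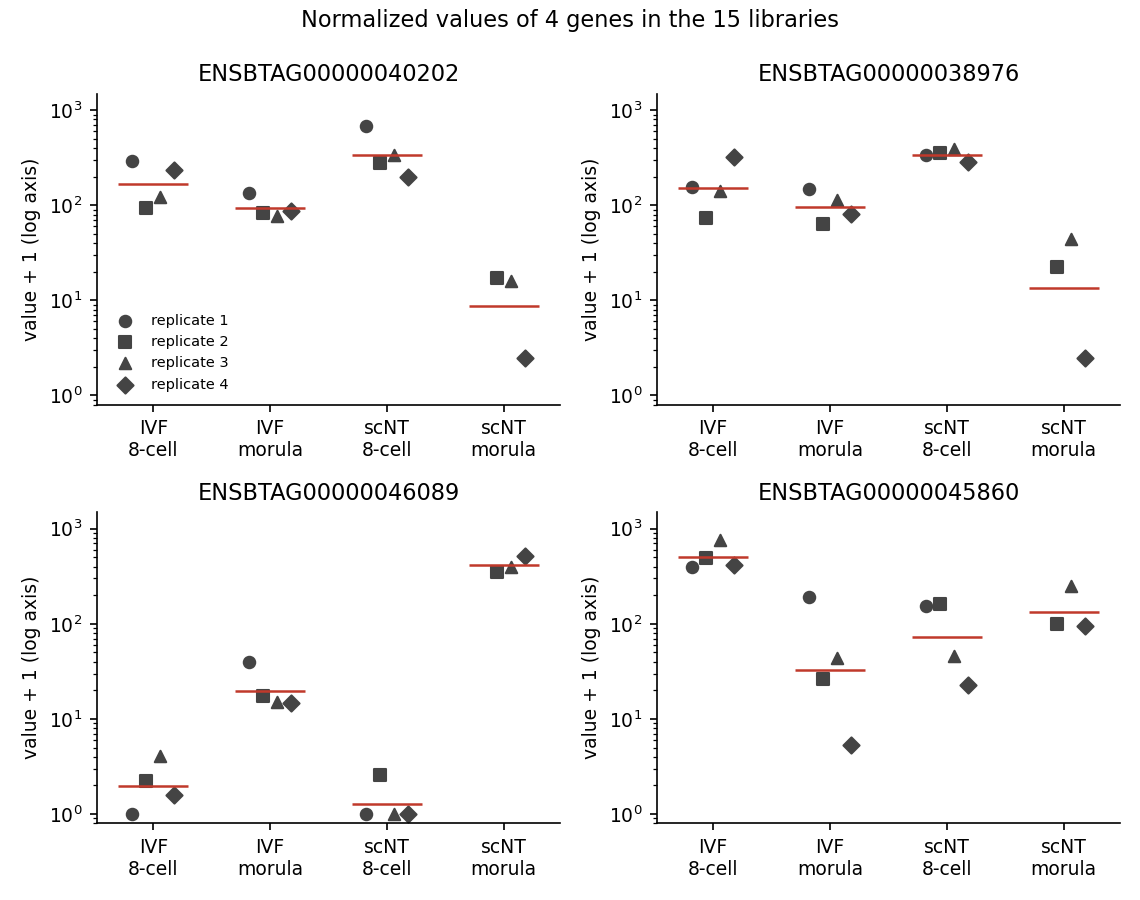
Normalized value + 1 of the 4 named genes in the 15 libraries on a log axis, 1 point per library with a marker shape per replicate number and a line at the mean of log2(value + 1). Both genes in the top row are lowest in the 3 scNT morulae, ENSBTAG00000046089 is highest there, and ENSBTAG00000045860 is highest in IVF 8-cell libraries.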

How the data were processed

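The large RNA fraction was sequenced in 47 libraries of 12 groups after a low-input kit with repeated PCR, and 15 libraries of 4 groups entered the contrast. The submitters' processing notes name the build UMD3.1 and, as tools, DESeq2, STAR, MultiQC and FastQC. Versions, annotation, read counter and strand: not given in the sources used here. Values deposited by the authors are a signal, 1 normalized read count per gene and library with 1 decimal. Values were whole multiples of 1 step per library, with 99.98% to 100% of them whole within 0.055, and reads recovered from them were used for edgeR 4.0.16 and DESeq2 1.42.0 only.

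The contrast was fitted with limma 3.58.1 in R 4.3.3 (trend and robust options) on log2(value + 1) over the 4 groups, two-sided, with Benjamini-Hochberg adjustment over 14519 genes. Tests at other stages used the same model on genes with a value of 10 or more in at least 4 libraries. The fit was also run on simulated data, in which same-numbered libraries were not linked. Its outcome is not given here, and nothing is concluded from it. No library looked like a copy of another of its own group, as chi-square over its degrees of freedom was at least 15.1 in the 21 pairs within groups. Reads from PCR without stated molecular identifiers are not independent molecules, and depth covers counting error only.

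Same-numbered 8-cell libraries of the 2 methods deviated together (r = 0.232 to 0.503 in 4 pairs), while same-numbered morulae did not (r = -0.114 to 0.0882 in 3 pairs). Genes were named as the 2 called genes with the largest difference per direction and a mean of at least 50. The 29 lists of named genes could not be used, since 0 identifiers matched a symbol. The members, lists and tests were chosen with earlier results of these data known.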

Additional observations from a re-analysis of the deposited data

Results flagged for a closer look

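The scNT and IVF steps differed by the interaction test in 2644 genes. The difference was -4.42 for ENSBTAG00000040202, -3.97 for ENSBTAG00000038976, 5.01 for ENSBTAG00000046089 and 4.82 for ENSBTAG00000045860.

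In 8 of 59 sets of 4 values, 1 library lay far from the other 3 by Dixon's criterion. Its chance rate of about 1 of 20 is that of independent sets, and these share genes and libraries. The 8 are therefore not set against that rate. Recovered reads were 15274177 in scNT 8-cell replicate 1, where the next library had 9963462. ENSBTAG00000046089 had a value of 38.6 in IVF morula replicate 1, against at most 16.3 in the others, and of 1.6 in scNT 8-cell replicate 2, against 0 in the others. That 1.6 stands for 2 recovered reads, and any single value above 0 beside values of 0 meets the criterion. The mean log2 level of lower genes was 8.24 in IVF 2-cell replicate 3, against at least 9.01, and 5.80 in IVF blastocyst replicate 3, against at most 5.51. Higher genes made up 5.63% of the total in fibroblast replicate 3, against at most 4.52%, and 6.19% in scNT blastocyst-derived replicate 2, against at most 5.78%. Their mean log2 level was 7.18 in scNT blastocyst-derived replicate 4, against at least 7.24.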

How the results depend on the processing

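Over 15 alternatives that changed the model, scaling, filter or set of libraries the number of genes called stayed within 1.5 times of 2644 in 13, and the number called lower in 14. The number called higher stayed within 1.5 times of its own value in only 9, and the number for the 8-cell gap in 7. With replicates 2 to 4 only the number of genes called for the step difference was 147 (13 higher, 134 lower). That fit called 3861 for the IVF step, 3 for the 8-cell gap and 786 for the morula gap. The replicate block among the 8-cell libraries, an alternative added after seeing the data, called 4300 for the step difference (1785 higher, 2515 lower) and 1200 for the 8-cell gap. The replicate block over all 15 libraries called 387 higher genes, 1799 in all, and 40 for the 8-cell gap. Array weights called 1405 higher genes, 111 for the 8-cell gap and 4009 for the morula gap. On recovered reads edgeR called 1040 higher and 1738 lower genes and 36 for the 8-cell gap, and DESeq2 called 1598 higher, 2212 lower and 1060. The 8-cell gap had 6 calls with 10 or more in 8 libraries and 2 with 50 or more in 3, where fewer genes were tested. Equal library totals gave 483 higher and 2198 lower and moved the median of all genes from -0.02 to -0.09.

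With 1 library left out in turn the range was 1188 to 4346 for all calls, 129 to 1823 for higher, 1059 to 2523 for lower, 9288 to 10313 for the scNT step, 4808 to 6971 for the IVF step, 3 to 1517 for the 8-cell gap and 554 to 2156 for the morula gap. No tested gene among the 2644 changed sign in any alternative, several of which (filters, the 8-cell block, the fit without the robust option) leave the estimates as they are. With replicates 2 to 4 only, ENSBTAG00000040202 and ENSBTAG00000038976 lost their call, and the cause of these shifts was not tested. The alternatives for lists of named genes could not be run without symbols. Depth as a limit on the calls was not tested.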
